A study of Mus musculus with 14 samples.

Results

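The genes described here are 10 genes of the MHC class I pathway, namely H2-K1, H2-D1, B2m, Tap1, Tap2, Tapbp, Nlrc5, Psmb8, Psmb9 and Erap1, in mouse embryonic stem cells (ESCs). They were picked by symbol from a table of 41204 genes, with their values in the 4 groups of that table known, so those values are given as a description and without a p-value. All 10 were found, and 8 of them, all but Nlrc5 and Psmb8, were among the 15430 genes with a mean above 0.2 FPKM (fragments per kilobase of transcript, scaled to the depth of the sample) that entered the tests. RNA was sequenced from wild-type ESCs and from ESCs without the long noncoding RNA Trincr1 (Trincr1-/-), in 2 media and with 2 samples per group, 8 samples in all. The cells are from a C57BL/6(F) x 129/sv(M) cross, labelled as of 3.5 days, and grew on gelatin. In 2i + LIF the medium held 1 uM of the MEK inhibitor PD0325901, 3 uM of the GSK3 inhibitor CHIR99021 and 1000 units per ml of leukemia inhibitory factor. For PD + LIF the cells spent 24 h in 2i + LIF and then 4 days without CHIR99021, so both media hold the MEK inhibitor and LIF. The time from plating to harvest is not given for 2i + LIF, so the media may also differ in it. The study made Trincr1-/- ESCs with a pair of guide RNAs around all exons but the first, and the labels say neither which clone or clones were sequenced nor whether the 2 samples of a group came from separate cultures. P-values therefore measure only the spread between these samples. Gm2694, the gene symbol of Trincr1, was at 5.70 and 9.45 FPKM in wild type and at 0.0754 and 0 FPKM in Trincr1-/- in 2i + LIF. In PD + LIF it was at 6.18 and 6.56 FPKM in wild type and at 1.38 and 0.746 FPKM in Trincr1-/-. Any reads of the exon left in place would count toward the Gm2694 values of both media, and which exons the reads came from was not tested. The paper reported the loss of Trincr1 by RT-qPCR with primers to each exon. The smallest steps between low values put the depth at about 8.43 M to 11.5 M fragments per sample, and the deposited values sum to 497115 to 519651 FPKM.

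MHC class I molecules show peptides of the cell's own proteins on its surface to T cells and natural killer cells. A class I molecule is a heavy chain, such as H2-K1 or H2-D1, bound to the light chain beta-2-microglobulin (B2m), and its peptide is cut by the proteasome, pumped into the endoplasmic reticulum by the transporter Tap1-Tap2, trimmed by the aminopeptidase Erap1 and loaded with the help of tapasin (Tapbp). Psmb8 and Psmb9 are catalytic subunits of the immunoproteasome, and Nlrc5 is the transactivator of class I genes. Interferons raise most of these genes in many cell types, and ESCs are known for low levels of class I on their surface.

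The 10 genes sit at few places in the genome. By the deposited coordinates, which match the build GRCm38, 7 of them lie on chromosome 17 within 1.35 Mb, in the order Tapbp, H2-K1, Psmb9, Tap1, Psmb8, Tap2 and H2-D1. Psmb9, Tap1, Psmb8 and Tap2 form a block of 34.3 kb (chr17:34181987-34216321). B2m lies on chromosome 2 (chr2:122147685-122153083), Nlrc5 on chromosome 8 (chr8:94472762-94527272) and Erap1 on chromosome 13 (chr13:74639871-74691875).

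RefSeq promoter windows of GRCm38.p6 were matched by symbol for 8 members, and Tap2 and Nlrc5 had none. The sequences shown are those of the genes whose levels differed most between groups. They are the 250 bases before the RefSeq start of H2-K1 (chr17:34000334-34000583, minus strand), H2-D1 (chr17:35262844-35263093, plus strand) and B2m (chr2:122147437-122147686, plus strand). Also shown are the 225 bases between the RefSeq starts of Psmb9 and Tap1 (chr17:34187331-34187555, plus strand), which are transcribed away from each other and share this stretch. By the deposited coordinates Psmb9 ends at 34187764 and Tap1 starts at 34187552, so there these genes overlap and the stretch lies within Psmb9. Capitals mark matches, on either strand, to GAANNGAAA (interferon regulatory factors), the kappa B motif (GGG, any pair of bases, TT, any base, CC), TGACG (the core of a cyclic AMP response element, CRE) or CCAAT, and no match overlaps another.
H2-K1: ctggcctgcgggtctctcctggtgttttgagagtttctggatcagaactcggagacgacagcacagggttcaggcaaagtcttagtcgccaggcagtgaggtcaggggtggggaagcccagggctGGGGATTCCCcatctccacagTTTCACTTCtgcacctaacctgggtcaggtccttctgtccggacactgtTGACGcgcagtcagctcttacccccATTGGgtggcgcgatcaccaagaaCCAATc
H2-D1: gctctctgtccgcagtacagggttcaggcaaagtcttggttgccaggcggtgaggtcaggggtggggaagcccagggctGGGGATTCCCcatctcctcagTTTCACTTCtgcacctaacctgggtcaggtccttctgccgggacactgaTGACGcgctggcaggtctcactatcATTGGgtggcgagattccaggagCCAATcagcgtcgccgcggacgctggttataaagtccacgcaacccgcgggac
B2m: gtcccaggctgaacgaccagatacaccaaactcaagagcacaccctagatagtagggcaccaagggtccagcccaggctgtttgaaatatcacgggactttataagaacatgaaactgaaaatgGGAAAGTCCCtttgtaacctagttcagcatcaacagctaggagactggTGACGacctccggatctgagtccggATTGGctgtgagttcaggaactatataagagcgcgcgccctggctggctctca
Tap1-Psmb9 interval: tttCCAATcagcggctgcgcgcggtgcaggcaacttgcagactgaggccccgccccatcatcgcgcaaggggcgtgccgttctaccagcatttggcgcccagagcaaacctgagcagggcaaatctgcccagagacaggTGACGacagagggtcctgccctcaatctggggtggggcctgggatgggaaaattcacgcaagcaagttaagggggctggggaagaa
These motifs, and TTCNNNGAA (the GAS element), were chosen after the promoters had been seen. H2-K1 and H2-D1 held the same matches in the same order, a kappa B match, an interferon regulatory factor match, a CRE core and a pair of CCAAT boxes, and their stretches were identical at 177 of 203 aligned bases (87.2%). The order starts 125 bases before the RefSeq start in H2-K1 and 171 bases before it in H2-D1. B2m held a kappa B match on the other strand, the CRE core and 1 CCAAT box, and no GAANNGAAA on either strand. Just before that kappa B match B2m reads gaaactgaaa, which is gaaa, ct and gaaa in a row. The pattern GAANNGAAA, as searched, cannot match this stretch, because its gap is shorter. Whether this stretch is a site of interferon regulatory factors was not tested, so B2m is not described as lacking such a site. Other forms of the motifs were not searched, so a missing match does not show that a site is lacking. The Tap1-Psmb9 stretch held 1 CRE core and 1 CCAAT box. Of all 32851 windows of 250 bases, 6.31% held GAANNGAAA, 4.11% the kappa B motif, 17.8% TGACG, 33.8% CCAAT and 7.02% TTCNNNGAA. All 4 capitalised motifs were found together in 13 windows (0.0396%), which include those of H2-K1 and H2-D1. The members' other windows held less, with a GAS match in Psmb8, CCAAT boxes in Tapbp and no match in Erap1.

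**Figure D1:**
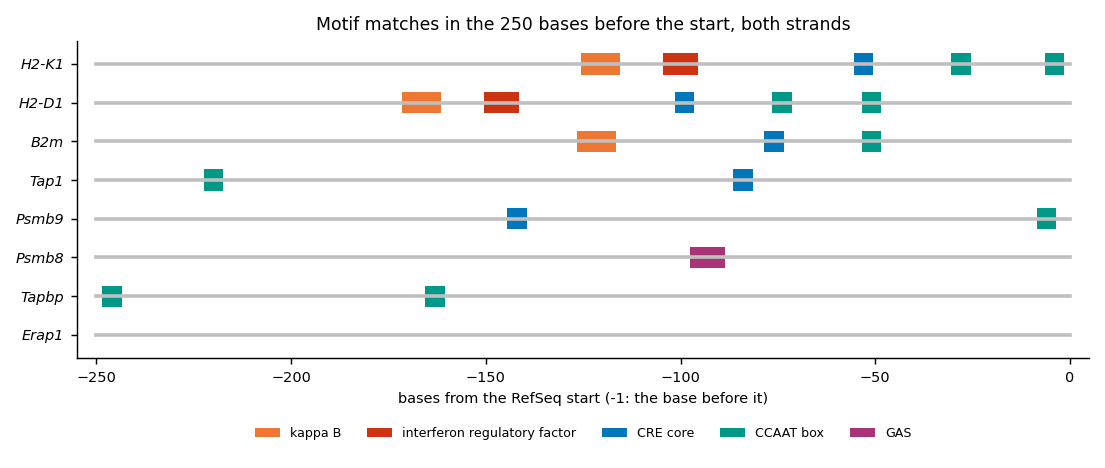
Matches to 5 motifs in the 250 bases before the RefSeq start of 8 members, with position in bases before the start on the x axis and 1 line per gene. H2-K1 and H2-D1 carry the same 5 matches in the same order, B2m carries 3 of them, and Erap1 carries none. Only these exact patterns were searched, so a missing match does not show that a site is lacking.

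The heavy chain genes H2-K1 and H2-D1 had the largest genotype differences in 2i + LIF on the log2(FPKM + 1) scale among the 8 members tested. H2-K1 (ENSMUSG00000061232, chr17:33996016-34000333) was at 9.54 and 9.66 FPKM in wild-type and at 2.94 and 3.27 FPKM in Trincr1-/- ESCs in 2i + LIF. In PD + LIF it was at 16.7 and 20.2 FPKM in wild type and at 23.4 and 20.7 FPKM in Trincr1-/-. Each Trincr1-/- sample was thus below each wild-type sample in 2i + LIF and above it in PD + LIF, and no groups overlapped. The mean in 2i + LIF was 3.09-fold lower in Trincr1-/- (3.11 ± 0.228 against 9.60 ± 0.0893 FPKM, SD, n = 2), a difference of -1.37 (SE 0.11) in log2(FPKM + 1). In PD + LIF the mean was 1.19-fold higher (22.01 ± 1.92 against 18.4 ± 2.45 FPKM), a difference of 0.25 (SE 0.11) whose 95% interval, -0.01 to 0.50, includes 0. Between media the H2-K1 mean was 1.92-fold higher in PD + LIF in wild type and 7.09-fold higher in Trincr1-/-.

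H2-D1 (ENSMUSG00000073411, chr17:35262729-35267499) had the same order of groups. It was at 6.01 and 6.31 FPKM in wild type and at 2.95 and 4.03 FPKM in Trincr1-/- in 2i + LIF. The PD + LIF values were 8.85 and 9.09 FPKM in wild type and 13.0 and 13.5 FPKM in Trincr1-/-. Trincr1-/- samples were again all below wild type in 2i + LIF and all above it in PD + LIF. The difference in log2(FPKM + 1) was -0.68 (SE 0.12) in 2i + LIF, a 1.76-fold lower mean, and 0.52 (SE 0.12) in PD + LIF, a 1.48-fold higher mean. PD + LIF samples were 1.46-fold above 2i + LIF samples in wild type and 3.80-fold above them in Trincr1-/-.

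H2-K1 and H2-D1 are close relatives, and reads can be shared between such genes and the other heavy chain genes. In GENCODE M1, the annotation of NCBIM37, their longest coding transcripts were identical at 91.7% of 1562 aligned bases. Of all runs of 50 bases, 8.87% of those in H2-K1 and 14.3% of those in H2-D1 occurred in transcripts of other genes, among them H2-Q2 and each other. With runs of 100 bases these shares were 0% and 4.64%. The paper's methods state default settings for its programs unless specified, and do not spell out how reads shared by several genes were assigned. The part of shared reads in the values of H2-K1 and H2-D1 was not tested.

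B2m (ENSMUSG00000060802), the light chain, followed the medium and not the genotype. It was at 8.10 and 7.89 FPKM in wild type and at 7.02 and 8.35 FPKM in Trincr1-/- in 2i + LIF. In PD + LIF B2m was at 31.4 and 34.2 FPKM in wild type and at 33.6 and 28.7 FPKM in Trincr1-/-. The genotypes overlapped in each medium, while every PD + LIF sample was above every 2i + LIF sample. The mean was 4.10-fold higher in PD + LIF in wild type and 4.06-fold higher in Trincr1-/-. The genotype difference in log2(FPKM + 1) was -0.05 (SE 0.11, 95% interval -0.30 to 0.19) in 2i + LIF and -0.08 (SE 0.11, 95% interval -0.32 to 0.17) in PD + LIF.

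Of the peptide transporter, Tap1 (ENSMUSG00000037321, chr17:34187552-34197225) was near the lower limit in 2i + LIF, at 0.211 and 0.752 FPKM in wild type and at 0.389 and 0.162 FPKM in Trincr1-/-. In PD + LIF Tap1 was at 3.38 and 2.96 FPKM in wild type and at 4.52 and 4.33 FPKM in Trincr1-/-. The genotypes overlapped in 2i + LIF and did not in PD + LIF, where the Trincr1-/- mean was 1.40-fold higher, a difference of 0.38 (SE 0.19, 95% interval -0.07 to 0.83) in log2(FPKM + 1). Between media the Tap1 mean was 6.58-fold higher in PD + LIF in wild type and 16.1-fold higher in Trincr1-/-. With 1 sample left out these folds ranged from 4.21 to 15.0 and from 11.4 to 27.3, since the low 2i + LIF values differed within each genotype.

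Tap2 (ENSMUSG00000024339, chr17:34203526-34216321), the partner of Tap1 in the transporter, was lower by level. It was at 0.656 and 0.0351 FPKM in wild type and at 0.0698 and 0 FPKM in Trincr1-/- in 2i + LIF, and at 0.710 and 0.727 FPKM in wild type and 0.682 and 0.540 FPKM in Trincr1-/- in PD + LIF. The 2 wild-type samples in 2i + LIF differed so much that their range overlapped both the Trincr1-/- samples of 2i + LIF and the Trincr1-/- samples of PD + LIF. By those steps, 1 fragment on 1000 bases was worth 0.0869 to 0.119 FPKM, and the lower of these 2 samples held an estimated 1.17 fragments of Tap2.

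Tapbp (ENSMUSG00000024308, chr17:33915898-33929288), tapasin, bridges the transporter and the empty class I molecule. In the main fit its medium differences were smaller in size than those of H2-K1, H2-D1, B2m and Tap1. In wild type Tapbp was close in size to H2-D1, at -0.40 (SE 0.08) against 0.48 (SE 0.12) in log2(FPKM + 1). Under the other settings run, Tapbp there ranged from -0.52 to -0.40 and H2-D1 from 0.30 to 0.54, so their order depends on the setting. Tapbp was at 15.0 and 14.8 FPKM in wild type and at 11.3 and 12.8 FPKM in Trincr1-/- in 2i + LIF, and at 11.1 and 10.9 FPKM in wild type and 11.2 and 12.2 FPKM in Trincr1-/- in PD + LIF. Wild type in 2i + LIF stood above the other 3 groups. In wild type the mean was 1.35-fold lower in PD + LIF, and in Trincr1-/- the media overlapped.

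The immunoproteasome subunits were scarce. Psmb9 (ENSMUSG00000096727, chr17:34181987-34187764) was at a value that rounds to 0 and at 0.594 FPKM in wild type and at 0.0307 and 0.0860 FPKM in Trincr1-/- in 2i + LIF. In PD + LIF it was at 0.893 and 1.30 FPKM in wild type and at 1.06 and 0.782 FPKM in Trincr1-/-, so all PD + LIF samples were above all 2i + LIF samples, and the genotypes overlapped in each medium. Psmb8 (ENSMUSG00000024338, chr17:34197720-34201454) was listed at 0 in all 4 samples of 2i + LIF, at 0.119 and 0.428 FPKM in wild type in PD + LIF and at 0.120 FPKM in both Trincr1-/- samples of PD + LIF.

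Erap1 (ENSMUSG00000021583), the trimming peptidase, and Nlrc5 (ENSMUSG00000074151), the transactivator, stayed at or under 0.581 FPKM in every sample. Erap1 was at 0.543 and 0.433 FPKM in wild type and at 0.517 and 0.513 FPKM in Trincr1-/- in 2i + LIF, and at 0.412 and 0.291 FPKM in wild type and 0.581 and 0.471 FPKM in Trincr1-/- in PD + LIF. Nlrc5 was listed at 0 in both wild-type samples and at 0.0263 and 0 FPKM in Trincr1-/- in 2i + LIF, and at 0.112 and 0.192 FPKM in wild type and 0.0563 and 0.0111 FPKM in Trincr1-/- in PD + LIF. The Nlrc5 values in Trincr1-/- in PD + LIF stand for an estimated 3.53 and 0.825 fragments, so no order of the genotypes can be read from them.

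**Figure D2:**
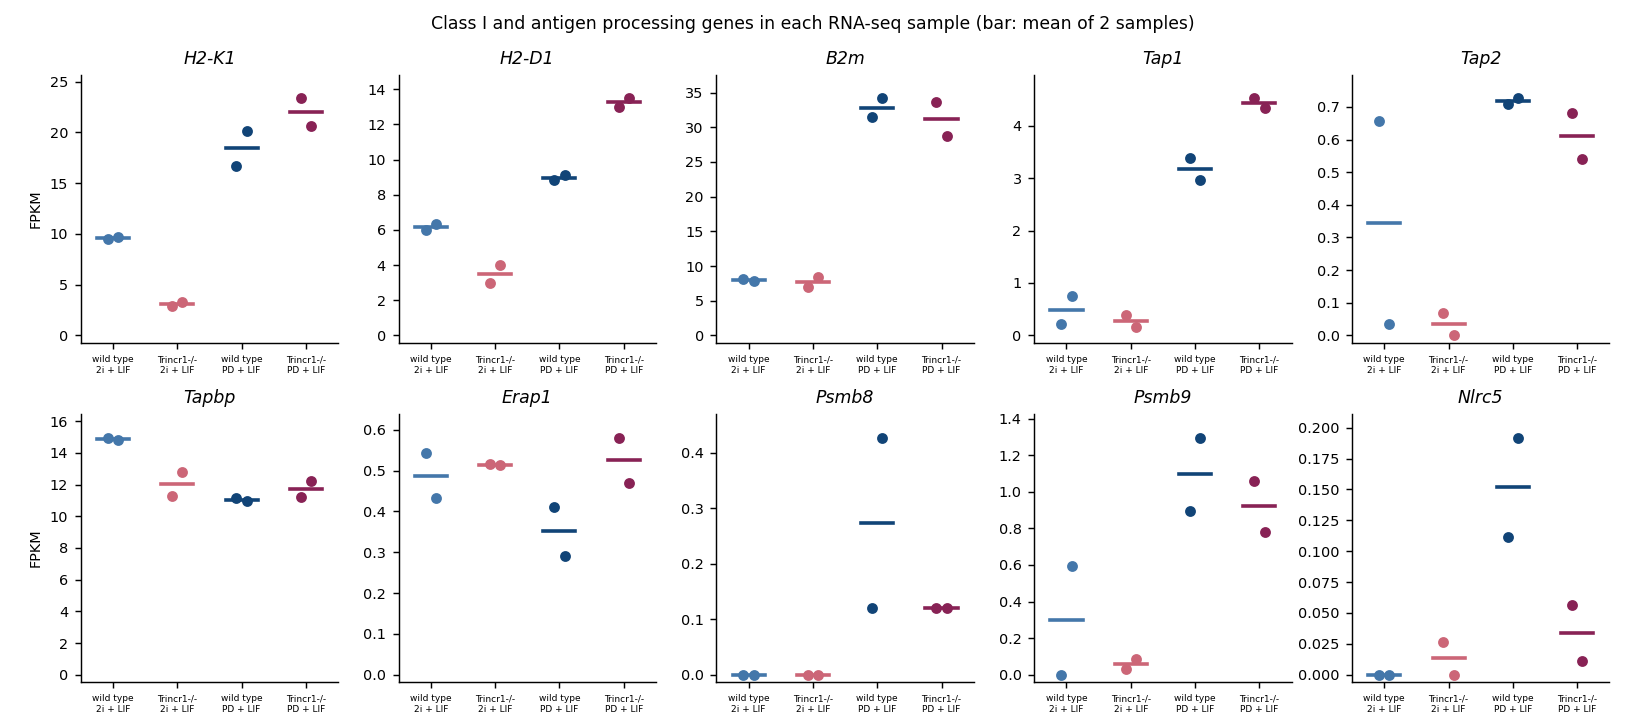
FPKM of the 10 genes in the 8 RNA-seq samples, with 1 panel per gene, the 4 groups on the x axis, points for samples and bars for the mean of 2 samples. H2-K1 and H2-D1 are lowest in Trincr1-/- ESCs in 2i + LIF and highest in Trincr1-/- ESCs in PD + LIF, while B2m separates by medium alone.

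By level, Tapbp led the members in 2i + LIF and B2m led in PD + LIF. In wild type in 2i + LIF the order was Tapbp, H2-K1, B2m and H2-D1 with no overlap between neighbours, and then Erap1, Tap1, Tap2 and Psmb9 with overlapping values. In Trincr1-/- in 2i + LIF, H2-D1 and H2-K1 had changed places with overlapping values, and both were below Tapbp and B2m. In PD + LIF the order was B2m, H2-K1, Tapbp, H2-D1, Tap1, Psmb9, Tap2 in wild type and B2m, H2-K1, H2-D1, Tapbp, Tap1, Psmb9, Tap2 in Trincr1-/-, again with no overlap between neighbours. Set among all 15430 genes, the B2m mean stood at percentile 55.5 in 2i + LIF and at percentile 82.8 in PD + LIF in wild type. The H2-K1 mean stood at percentile 39.8 in 2i + LIF and at percentile 75.1 in PD + LIF in Trincr1-/-.

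The comparison of genotypes in each medium asks what the loss of Trincr1 changes. In the fit across all genes (limma on log2(FPKM + 1), adjusted p under 0.05), 0 of 8 members were called higher and 1 lower, H2-K1, in Trincr1-/- in 2i + LIF, where 1.21% of all genes were called in either direction, 0.35% higher and 0.855% lower. In PD + LIF 1 was called higher, H2-D1, and 0 lower, where 12.1% of all genes were called, 6.29% higher and 5.77% lower. In 2i + LIF the genotypes did not overlap in 3 members, with Trincr1-/- above wild type in 0 (22% of all genes) and under it in 3 (22.4%). In PD + LIF they did not overlap in 6, with Trincr1-/- above wild type in 5 (30.2%) and under it in 1 (27.5%). The median member difference was -0.27 in 2i + LIF, with 1 of 8 above 0, and 0.13 in PD + LIF, with 5 of 8 above 0, against a median over all genes of 0.00 and 0.01. In 3 members, H2-K1, H2-D1 and Tapbp, both Trincr1-/- samples lay below both wild-type samples in 2i + LIF and above them in PD + LIF, an order that 5.13% of all genes had. Nothing is read from these counts, since the members were chosen with the same values known. The difference between the genotype differences of the media was 1.62 (SE 0.15) for H2-K1, 1.198 (SE 0.17) for H2-D1, 0.58 (SE 0.27) for Tap1 and 0.36 (SE 0.12) for Tapbp, and -0.02 (SE 0.15, 95% interval -0.37 to 0.33) for B2m.

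Between media, 5 of 8 members were called higher and 1 lower in PD + LIF in wild type, and 6 higher and 0 lower in Trincr1-/-. Of all genes 52.2% were called in wild type, 30.9% higher and 21.3% lower, and 50% in Trincr1-/-, 29.6% higher and 20.3% lower. The media did not overlap in 8 members in wild type, of which PD + LIF was the higher in 6 and the lower in 2, against 44.4% and 32.1% of all genes, and in 6 and 0 in Trincr1-/-, against 43.3% and 31.2%. B2m differed by 1.91 (SE 0.11) in wild type and by 1.89 (SE 0.11) in Trincr1-/- on the log2(FPKM + 1) scale. For Tap1 these differences were 1.52 (SE 0.19) and 2.09 (SE 0.19), for Psmb9 0.72 (SE 0.23) and 0.86 (SE 0.23). This scale understates changes of genes below 1 FPKM, such as Psmb9 and Tap2. The one member called lower was Tapbp in wild type, at -0.40 (SE 0.08). With quantile normalization the split over all genes in wild type changed from 4765 higher and 3283 lower to 3803 higher and 3946 lower, and in Trincr1-/- from 4572 and 3136 to 3578 and 3838. The median over all genes then moved from 0.07 to -0.03 in Trincr1-/-. Under it the medium difference of H2-D1 in wild type was 0.30 in place of 0.48, that of H2-K1 0.76 in place of 0.87, and in Trincr1-/- they were 1.48 and 2.32.

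**Figure D3:**
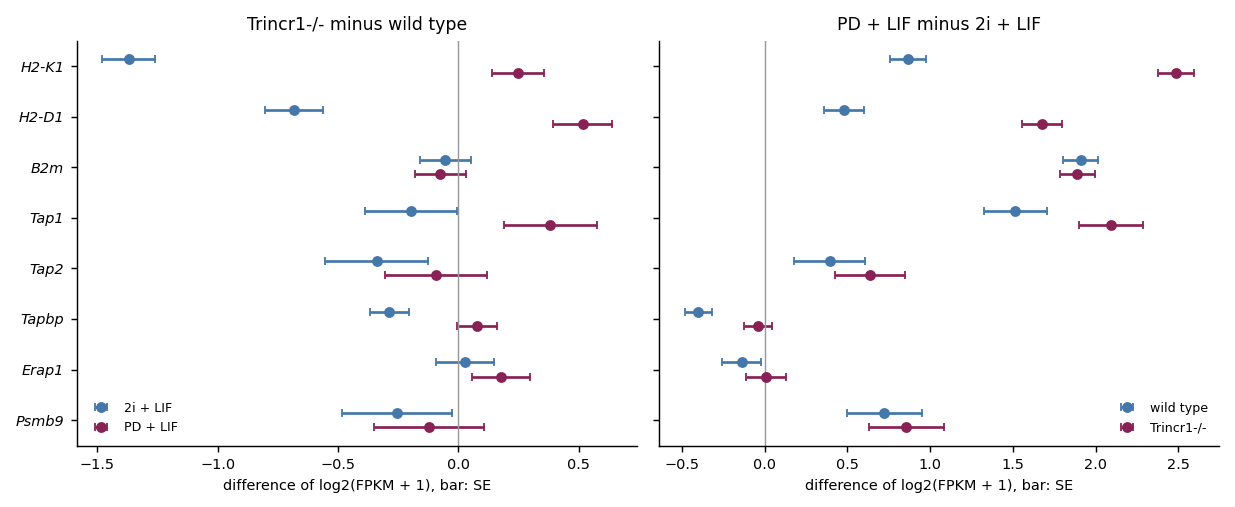
Differences of log2(FPKM + 1) for the 8 members with a mean above 0.2 FPKM, genotype differences in each medium on the left and medium differences in each genotype on the right, with points for the fitted difference of 2 against 2 samples and bars for its SE. H2-K1 and H2-D1 lie left of 0 in 2i + LIF and right of 0 in PD + LIF, and B2m lies near 0 for the genotype and near 1.9 for the medium.

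The rest of the pathway was described from lists of 127 genes in 10 groups, of which 121 were in the table and 93 entered the tests. Those genes are not members, so they carry adjusted p-values (limma, Benjamini-Hochberg over all 15430 genes). In 2i + LIF, 0 rose and 2 fell in Trincr1-/- (2.15% of 93), and in PD + LIF 5 rose and 6 fell (11.8%), shares close to the 1.21% and 12.1% of all genes. Between media 25 rose and 41 fell in wild type (71.0%, against 52.2% of all genes). In Trincr1-/- 22 rose and 27 fell (52.7%, close to the 50% of all genes). Of all genes 30.9% rose and 21.3% fell in wild type, and 29.6% and 20.3% in Trincr1-/-. The medium counts of each list below stand beside these shares, and many of them are near them.

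Among 9 other heavy chain genes tested, of 16 in the table, 3 rose and 2 fell with PD + LIF in each genotype. H2-Q7, which like most of these encodes a nonclassical class I chain, was at 0.0207 and 0.0932 FPKM in wild type in 2i + LIF and at 1.03 and 1.57 FPKM in PD + LIF (log2 difference 1.12, adjusted p = 0.00255). H2-Q4 rose from 0.968 ± 0.111 to 2.35 ± 0.182 FPKM in wild type (adjusted p = 0.00187) and H2-T22 from 1.59 ± 0.0104 to 3.04 ± 0.388 FPKM (adjusted p = 0.00979), a call that quantile normalization ended in both genotypes. H2-M5 went the other way, from 27.9 ± 0.286 to 6.31 ± 1.23 FPKM in wild type (adjusted p = 6.58e-05) and from 28.3 ± 6.06 to 6.53 ± 0.147 FPKM in Trincr1-/- (adjusted p = 6.95e-05). For the genotype, 0 of 9 were called in 2i + LIF, with a list median of -0.35 against 0.00 over all genes, and 1 fell in PD + LIF. That gene, H2-Bl, went from 4.65 ± 1.22 FPKM in wild type to 1.18 ± 0.233 FPKM in Trincr1-/- (log2 difference -1.36, adjusted p = 0.00812), the opposite direction to H2-D1. Without wild-type replicate 1 or Trincr1-/- replicate 1 of PD + LIF the call of H2-Bl was lost, with an adjusted p of up to 0.0677. Of 3 class I-like genes, Fcgrt, the neonatal Fc receptor, fell with PD + LIF in both genotypes, and Cd1d1, which presents lipids, rose in Trincr1-/- from 3.25 ± 0.247 to 6.33 ± 0.0848 FPKM (adjusted p = 0.000936).

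Of 6 genes of chaperones and other factors that fold and load class I molecules, 0 rose and 5 fell with PD + LIF in wild type and 0 rose and 3 fell in Trincr1-/-. Calr, calreticulin of the loading complex, went from 435 ± 3.20 to 285 ± 5.46 FPKM in wild type (adjusted p = 1.65e-05) and from 417 ± 9.28 to 334 ± 1.62 FPKM in Trincr1-/- (adjusted p = 0.000227). Pdia3, the oxidoreductase bound to tapasin, went from 171 ± 5.80 to 109 ± 1.30 FPKM in wild type (adjusted p = 2.26e-05). Canx, calnexin, went from 252 ± 6.12 to 210 ± 7.05 FPKM in wild type (adjusted p = 0.00219), and was not called in either genotype after quantile normalization. With Trincr1-/- the levels in PD + LIF were higher than in wild type for 3 of the 6, Hspa5 (1.38-fold, adjusted p = 0.00423), Calr (1.17-fold, adjusted p = 0.00866) and Pdia3 (131 ± 0.694 against 109 ± 1.30 FPKM, adjusted p = 0.00861). Hspa5, the general chaperone BiP, was at 127 and 132 FPKM in wild type and at 186 and 172 FPKM in Trincr1-/- in PD + LIF, and its call held without any 1 sample, while Calr and Pdia3 lost theirs without Trincr1-/- replicate 1 of PD + LIF, and Calr also without wild-type replicate 1 (adjusted p up to 0.0636 and 0.0612). The genotype difference changed between media, a comparison in which 1.81% of all genes were called, for Hspa5 by 0.60 (SE 0.08, adjusted p = 0.0272), Pdia3 by 0.33 (SE 0.05, adjusted p = 0.0368) and Calr by 0.29 (SE 0.05, adjusted p = 0.0380). None of these 3 held when any 1 of the 8 samples was left out, with adjusted p from 0.0561 to 0.130.

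Proteasome genes were mostly lower in PD + LIF in wild type. Of 14 genes of the constitutive core, 1 rose and 12 fell in wild type and 1 rose and 7 fell in Trincr1-/-. Of 6 immunoproteasome and activator genes outside the members, 0 rose and 3 fell in wild type and 0 were called in Trincr1-/-. Psmb6, the subunit that Psmb9 replaces, was at 304 ± 1.57 FPKM in wild type in 2i + LIF and at 241 ± 6.06 FPKM in PD + LIF (adjusted p = 0.000277). Psmb5, the subunit that Psmb8 replaces, went from 171 ± 11.4 to 149 ± 3.59 FPKM (adjusted p = 0.0137), and Psmb7 from 181 ± 4.90 to 160 ± 4.69 FPKM (adjusted p = 0.0154). With quantile normalization the differences of Psmb5 and Psmb7 turned to 0.01 and 0.03, and neither they nor those of Psma4, Psma6 and Psmb2 were called in wild type, while in Trincr1-/- Psma1, Psma4 and Psmb6 lost their calls. Psmb10, the third immunoproteasome subunit, fell 2.72-fold in wild type, from 9.54 ± 1.40 to 3.51 ± 0.967 FPKM (adjusted p = 0.000776), and was at 7.14 ± 0.0203 and 5.20 ± 0.634 FPKM in Trincr1-/- (adjusted p = 0.0881). The proteasome activator genes Psme1 and Psme2 were called in no comparison. In PD + LIF, Psmb6 (1.13-fold, adjusted p = 0.0238) and the proteasome maturation factor Pomp (1.17-fold, adjusted p = 0.0149) were higher in Trincr1-/-. The Psmb6 call was lost without any 1 of the 4 PD + LIF samples (adjusted p up to 0.112), and that of Pomp without 3 of them (up to 0.0940). Among 7 cytosolic peptidases, Lap3, leucine aminopeptidase, fell with PD + LIF from 273 ± 11.6 to 138 ± 1.67 FPKM in wild type (adjusted p = 1.65e-05) and was lower again in Trincr1-/- in PD + LIF at 107 ± 5.03 FPKM (adjusted p = 0.00863, and up to 0.0554 with 1 sample left out).

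The known regulators of class I genes were mixed in direction. With PD + LIF 6 of 15 tested rose and 4 fell in wild type, and 5 rose and 3 fell in Trincr1-/-. Irf1, the interferon regulatory factor that activates class I promoters, was at 14.1 and 13.7 FPKM in wild type and at 8.59 and 10.5 FPKM in Trincr1-/- in 2i + LIF (log2 difference -0.50, SE 0.10, adjusted p = 0.0639). In PD + LIF it was at 16.4 and 17.5 FPKM in wild type and at 11.4 and 11.3 FPKM in Trincr1-/- (log2 difference -0.54, SE 0.10, adjusted p = 0.0160). Irf1 was thus below wild type in both media, whereas H2-K1 and H2-D1 were below it in 2i + LIF and above it in PD + LIF. The Irf1 call in PD + LIF was lost without any 1 of the 4 PD + LIF samples, with adjusted p up to 0.0932. Irf2 rose with PD + LIF in wild type from 0.0727 ± 0.0513 to 0.849 ± 0.352 FPKM (adjusted p = 0.00671) and in Trincr1-/- from 0.0395 ± 0.00487 to 1.39 ± 0.318 FPKM (adjusted p = 0.000946). Rfx5, a subunit of the RFX complex on the X box of class I promoters, rose in wild type from 4.65 ± 1.01 to 8.23 ± 1.12 FPKM (adjusted p = 0.00464), while its partners Rfxap and Rfxank were called in no comparison. Of the CCAAT-binding NF-Y complex, Nfya rose 1.28-fold in wild type (adjusted p = 0.00854) and Nfyc fell 2.16-fold (adjusted p = 0.000334).

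Of 9 interferon receptor and signaling genes, 5 rose and 1 fell with PD + LIF in wild type, and 4 rose and 0 fell in Trincr1-/-. Ifnar2, of the type I receptor, went from 3.24 ± 0.555 to 11.6 ± 0.165 FPKM in wild type (adjusted p = 7.17e-05) and from 4.28 ± 0.412 to 13.5 ± 1.56 FPKM in Trincr1-/- (adjusted p = 9.82e-05). Ifngr2, of the interferon gamma receptor, went from 0.736 ± 0.228 to 3.29 ± 1.12 FPKM in wild type (adjusted p = 0.00122). In Trincr1-/- the call of Ifngr2 (adjusted p = 0.0416) was lost in 6 of 8 fits with 1 sample left out, with adjusted p up to 0.176. Ifnar1 was called in neither genotype and Ifngr1 in wild type alone, a difference between genotypes that did not pass the interaction test (adjusted p = 0.146). In wild type Ifngr1 and the kinases Jak1 and Jak2 lost their calls after quantile normalization. The transcripts of interferon gamma and beta themselves, Ifng and Ifnb1, did not pass the filter on low values.

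Interferon-stimulated genes were split in direction between media. Of 31 listed, 18 were tested, and with PD + LIF 5 rose and 10 fell in wild type and 5 rose and 9 fell in Trincr1-/-, with list medians of -0.66 and -0.39 against 0.08 and 0.07 over all genes. Igtp, an immunity-related GTPase, rose from 0.297 ± 0.161 to 2.31 ± 0.202 FPKM in wild type (adjusted p = 0.000185), and Bst2, tetherin, from 99.0 ± 1.88 to 187 ± 20.2 FPKM (adjusted p = 7.49e-05). Oas1a, an antiviral oligoadenylate synthetase, fell from 18.2 ± 0.759 to 1.97 ± 0.313 FPKM (adjusted p = 5.74e-06) and Xaf1 from 6.94 ± 1.97 to 0.456 ± 0.191 FPKM (adjusted p = 7.40e-05). For the genotype, all calls were downward, 2 in 2i + LIF and 3 in PD + LIF. Bst2 was at 97.6 and 100.3 FPKM in wild type and at 68.5 and 69.8 FPKM in Trincr1-/- in 2i + LIF (log2 difference -0.51, adjusted p = 0.0274), and at 173 and 201 FPKM in wild type and 110 and 103 FPKM in Trincr1-/- in PD + LIF (log2 difference -0.80, adjusted p = 0.00267). Irgm1 fell 3.54-fold in 2i + LIF, from 4.70 ± 0.144 to 1.33 ± 0.730 FPKM (adjusted p = 0.0461), and in PD + LIF Ifitm3 fell 1.23-fold (adjusted p = 0.0119) and Parp9 1.58-fold (adjusted p = 0.0419). The Bst2 call in PD + LIF held without any 1 sample. Each of the other calls was lost without some of the 8 samples, Parp9 without any 1 of them (adjusted p 0.0599 to 0.154). In the MHC class II list H2-Eb1 fell with PD + LIF from 5.30 ± 0.372 to 0.787 ± 0.242 FPKM in wild type (adjusted p = 5.21e-05), while H2-Oa, H2-Ab1 and H2-DMa, with means at or under 1.63 FPKM, rose, calls that quantile normalization ended.

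**Figure D4:**
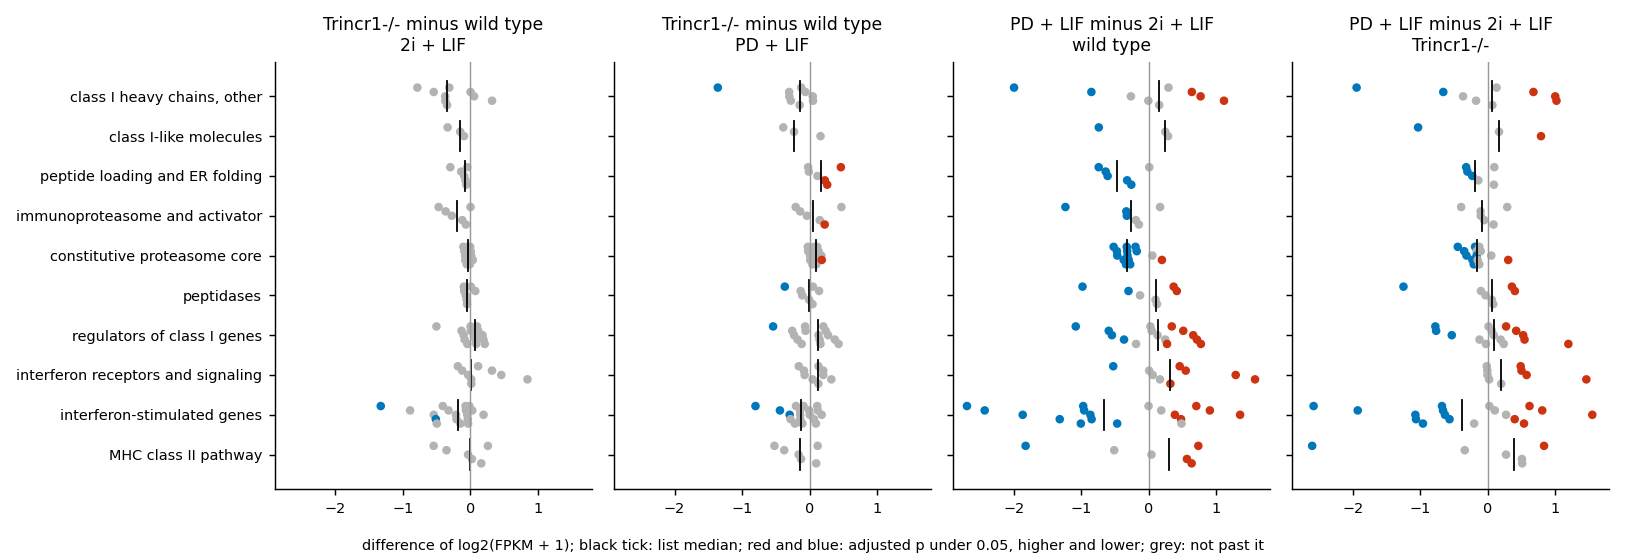
Differences of log2(FPKM + 1) for 93 pathway genes in 10 lists, 1 point per gene and 1 panel per comparison, with red and blue for genes past the threshold and a black tick for the list median. Few genes are coloured in the 2 genotype panels (2 and 11), and many in the 2 medium panels (66 and 49), with most proteasome core genes left of 0 in wild type.

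Other genes around the chromosome 17 members were read beside them. Of 37 tested genes within 100 kb of such a member, 0 were called in 2i + LIF (limma, 1.21% of all genes) and 5 in PD + LIF (13.5%, against 12.1% of all genes). In PD + LIF Slc39a7, Brd2 and Ddx39b rose and Kank3 and Ndufa7 fell in Trincr1-/-, genes named after their values were seen. Ddx39b, an RNA helicase gene, was at 140 and 143 FPKM in wild type and at 179 and 169 FPKM in Trincr1-/-. Leaving out any 1 sample brought the count of 5 to between 0 and 3. With PD + LIF 10 of the 37 rose and 9 fell in wild type (51.4%, against 52.2% of all genes), and 4 rose and 9 fell in Trincr1-/- (35.1%, against 50% of all genes).

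**Figure D5:**
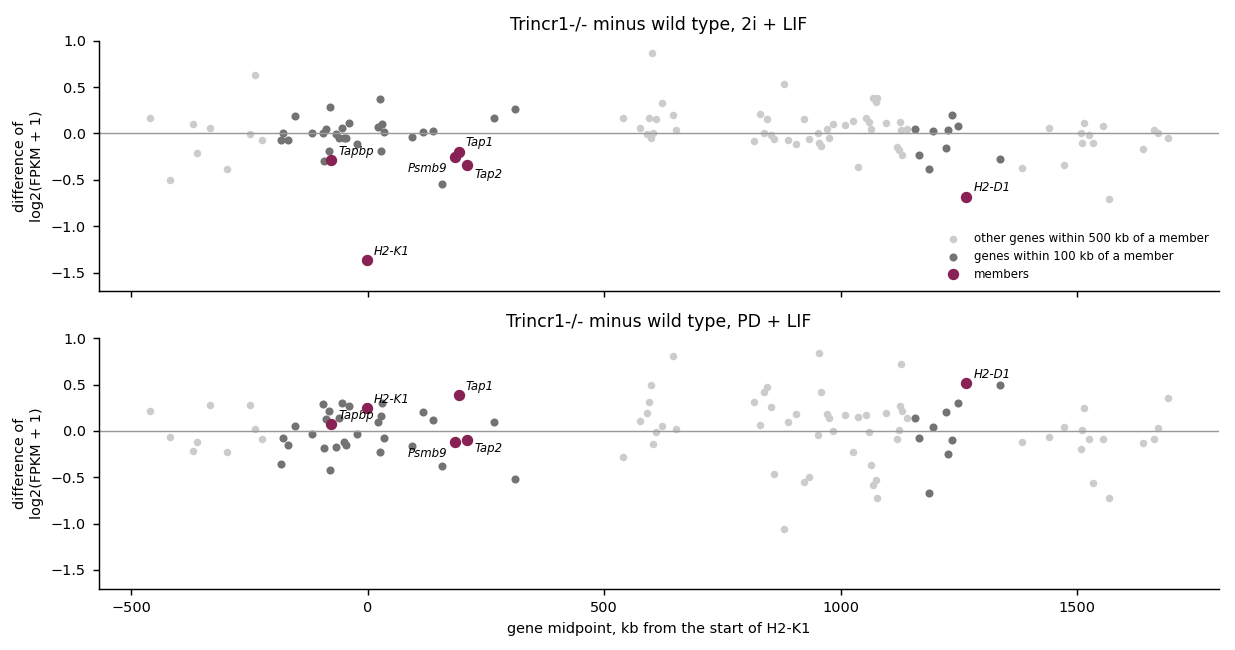
Genotype differences of log2(FPKM + 1) for genes on chromosome 17 against the distance of the gene's midpoint from the start of H2-K1 in kb, 2i + LIF above and PD + LIF below. In 2i + LIF H2-K1 (-1.37) and H2-D1 (-0.68) lie under most of their neighbours, and in PD + LIF both lie above 0.

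Trincr1 binds the RNA-binding protein TRIM71, and the study also sequenced RNA pulled down with FLAG-tagged TRIM71 from ESCs that overexpress it in 2i + LIF. The choice of members did not use that readout. The deposited table gives 1 value each for the pulldown (IP) and the input, with no replicates, so no test is possible, and the empty-vector IP was not used here. Of 10 members 8 were listed, 4 of them with an input above 2 FPKM, and 0 of those 4 had a scaled IP over input above 3, against 492 of 9651 transcripts (5.1%). H2-K1 had an input of 18.5 FPKM and B2m of 7.3 FPKM, and both were listed at 0 in the IP, as were 46.4% of transcripts with input above 2 FPKM. Tapbp had an input of 25.8 FPKM and a scaled IP of 3.1, a ratio of 0.12. H2-D1 had an input of 8.1 FPKM and a scaled IP of 10.3, a ratio of 1.27, or 0.57 without the authors' scaling, and 87.1% of transcripts had a lower scaled ratio. Of 66 pathway genes with input above 2 FPKM, Hspa5 (ratio 6.21) and Psma6 (ratio 3.38) were above 3 and 28 were listed at 0 in the IP. Without the authors' scaling the ratios of Hspa5 and Psma6 were 2.765 and 1.504, both under 3.

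The mean profile of the 8 members over the 8 samples was matched to 12058 other genes with a mean above 1 FPKM. H2-D1 (r = 0.99) and H2-K1 (r = 0.98) were closest to that profile among the members, Tap1 (0.90), B2m (0.87), Tap2 (0.82) and Psmb9 (0.81) followed, and Erap1 (-0.14) and Tapbp (-0.28) came last, each member being itself part of the mean. Outside the members the 5 genes most like it, by Pearson's r on log2(FPKM + 1), were Cdip1 (0.997), Nub1 (0.986), Zcchc3 (0.985), Ppp1r9b (0.984) and Syt11 (0.982). Cdip1 was at 18.9 and 18.1 FPKM in wild type and 15.3 and 16.2 FPKM in Trincr1-/- in 2i + LIF, and at 21.4 and 20.7 FPKM in wild type and 23.9 and 23.3 FPKM in Trincr1-/- in PD + LIF. Its range was thus far narrower than that of H2-K1. These are descriptions over 8 samples of 4 groups, picked as the highest of many.

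Marker genes of ESCs and of other cell types were read beside the members. In these bulk samples, fewer cells of a type and less RNA per cell cannot be told apart. The 9 ESC markers were all present, with a summed level of 3666 to 3776 FPKM in wild type in 2i + LIF and 1812 to 2033 FPKM in Trincr1-/- in PD + LIF, where 6 of the 9 fell against wild type. Of 7 hematopoietic markers, Ptprc, Tyrobp and Lyz2 were listed at 0 in all 8 samples. The list summed to 63.2 to 67.6 FPKM in 2i + LIF and 33.6 to 41.6 FPKM in PD + LIF, mostly from Laptm5. With PD + LIF the Laptm5 mean fell in wild type, from 57.2 to 27.4 FPKM, while that of Cd68 rose from 7.48 to 12.9 FPKM. In Trincr1-/- both fell, Laptm5 from 59.3 to 28.3 FPKM and Cd68 from 7.58 to 5.22 FPKM. The 8 primitive endoderm markers summed to 6.37 to 6.87 FPKM in 2i + LIF and to 7.95 to 10.8 FPKM in PD + LIF. Of 5 tested, 2 rose and 1 fell with PD + LIF in wild type, and 4 rose and 1 fell in Trincr1-/-. Lama1, most of the 2i + LIF sum, went down, from 5.14 to 3.53 FPKM in wild type and from 5.23 to 2.91 FPKM in Trincr1-/-. The 8 fibroblast markers summed to 0.714 to 1.497 FPKM in wild type and 0.850 to 1.02 FPKM in Trincr1-/- in 2i + LIF, and to 4.47 to 4.92 and 5.93 to 6.87 FPKM in PD + LIF. The 7 trophoblast markers summed to 30.7 to 34.1 FPKM in 2i + LIF, to 174 to 182 FPKM in wild type and 296 to 304 FPKM in Trincr1-/- in PD + LIF, a sum made mostly of Krt8, Krt18 and Tfap2c. With PD + LIF 4 of 6 tested trophoblast markers rose and 2 fell in each genotype, and Cdx2 and Eomes were the 2 that fell, Cdx2 to 0.166 and 0.109 FPKM and Eomes to 0.813 and 0.953 FPKM in Trincr1-/-. The 5 markers of primed epiblast summed to 53.5 to 59.7 FPKM in 2i + LIF, and to 135 to 154 and 206 to 225 FPKM in PD + LIF. The fibroblast, primitive endoderm, trophoblast and primed epiblast sums were higher in PD + LIF, as most members were, while the ESC and hematopoietic sums were lower, and their part in the members' levels was not tested. In 2i + LIF 1 of 6 tested trophoblast markers rose in Trincr1-/-, Cdx2, from 0.727 and 0.766 FPKM in wild type to 2.60 and 3.43 FPKM.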

How the data were processed

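Poly(A) RNA of 8 ESC samples was sequenced, 2 in each of 4 groups of genotype and medium, and TRIM71 RNA immunoprecipitation in a separate experiment. The authors aligned the reads with STAR 2.5.0 and deposited FPKM values per gene, computed with Cufflinks 2.2.1. Their methods name mm9, but 76.8% of 13847 genes had deposited coordinates within 1000 bases of GRCm38.p6, against 5.15% of 14024 for NCBIM37, so coordinates are given as GRCm38. For the immunoprecipitation the authors deposited FPKM values of input and IP, an IP signal they scaled, and a fold column of their own, which was not used. Input RNA was poly-T selected and IP RNA went directly into cDNA. Samples with an empty vector were not analysed here. Groups were taken from the labels.

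Of entries with the same gene identifier the one with the highest mean was kept, which left 41204 genes of 41260 entries. Genes with a mean above 0.2 FPKM (15430) were fitted as log2(FPKM + 1) with limma 3.58.1 in R 4.3.3, with the 4 groups in 1 fit, a variance trend, 4 residual degrees of freedom and Benjamini-Hochberg adjustment over all genes, at a threshold of 0.05. A fold is the ratio of group means in FPKM, while a log2 difference is on the log2(FPKM + 1) scale, which understates changes of low genes. The tables used hold no counts, so depth was only estimated, roughly and without correction for fragment length. The members and gene lists were chosen with earlier results of these data known, and members get no p-value. Genes named beside the members are, for each list and comparison, at most 5 past the threshold with the largest log2 differences, a set of regulators, proteasome subunits and chaperones whatever their values, Gm2694, and the 5 genes with the profile most like the members'. Neighbours and genes of the interaction were named after their values were seen. Promoter windows came from RefSeq. Python 3.11.15, pandas 2.3.3, numpy 2.4.6, scipy 1.17.1, matplotlib 3.10.9 and Biopython 1.88 were used. Alternatives were pseudocounts of 0.1 and 0.5, no filter or a mean above 1 FPKM, quantile and median ratio scaling, no variance trend, a replicate block, fits to the samples of 1 comparison, and each sample left out. The procedure was tested on simulated data.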

Additional observations from a re-analysis of the deposited data

Results flagged for a closer look

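For 6 genes the genotype differences of both media were set side by side. In H2-K1, H2-D1 and Tapbp both Trincr1-/- samples were below both wild-type samples in 2i + LIF and above both in PD + LIF, an order found in 5.13% of all genes. The difference of the 2 genotype differences was 1.616 for H2-K1, 1.198 for H2-D1 and 0.3615 for Tapbp in log2(FPKM + 1), given as a description with no test, since these members were chosen with the values known. For 3 chaperone genes outside the members the interaction term of limma passed the threshold in the fit across all genes, with 0.2872 for Calr, 0.5991 for Hspa5 and 0.334 for Pdia3. None of these 3 calls held when any 1 of the 8 samples was left out.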

How the results depend on the processing

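The differences of H2-K1 and H2-D1 kept their direction in both media under all alternatives run, with H2-K1 between -1.60 and -1.30 in 2i + LIF and between 0.25 and 0.26 in PD + LIF, and with any 1 sample left out between -1.43 and -1.31 and between 0.12 and 0.38. H2-D1 with 1 sample left out was between -0.86 and -0.51 and between 0.49 and 0.54. For Tap1 and Psmb9 in 2i + LIF the genotype difference with 1 sample left out reached from -0.46 to 0.07 and from -0.59 to 0.08.

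Other counts moved. In 2i + LIF the genotype called 186 genes, but 122 with no filter, 111 with the replicate block and 0 from the samples of that comparison alone (limma, 2106 at an unadjusted p under 0.05). The pathway count of 2 there became 1 with a pseudocount of 0.1 or 0.5, with quantile normalization or without the variance trend, and 0 with no filter, with the replicate block or from the comparison's own samples. In PD + LIF the comparison's own samples gave 316 genes in place of 1861, 3 pathway genes in place of 11 and 0 neighbours in place of 5, and neighbours were 2 without the variance trend and 2 with the replicate block. For the difference between media of the genotype difference, 279 genes became 138 with no filter, 88 without the variance trend and 39 with the replicate block, and 3 pathway genes became 1, 0 and 0. That comparison was not run on fewer groups. Within 500 kb 0.96% of neighbours were called in it, against 0 within 100 kb. The cause of these changes was not tested, but fits to 1 comparison use fewer samples. Psmb5 and Psmb7 turned to 0.014 and 0.032 between media in wild type after quantile normalization. Without the authors' scaling, IP over input was 0.568 for H2-D1 and 0.0543 for Tapbp.

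With 1 sample left out, the genotype called 40 to 113 genes, 0 to 1 pathway genes and 0 neighbours in 2i + LIF, and 335 to 1519, 3 to 10 and 0 to 3 in PD + LIF, with 3 pathway genes and 0 neighbours without replicate 1 of either genotype in PD + LIF. The medium called 6473 to 7937 genes, 52 to 65 pathway genes and 12 to 18 neighbours in wild type and 6136 to 7552, 42 to 50 and 8 to 12 in Trincr1-/-. The interaction called 3 to 34 genes, 0 pathway genes and 0 neighbours. Replicate numbers did not pair the samples, with correlations of deviations from -0.054 to 0.006, and the replicate block gave 111, 1302, 7768, 7386 and 39 genes for genotype in 2i + LIF and in PD + LIF, medium in wild type and in Trincr1-/-, and the interaction. Depth limits Nlrc5, Psmb8, Tap2 and Psmb9 most, with few fragments per sample.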
